A study of Mus musculus with 9 samples.

Results

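Macrophage genes were followed across 3 cultured lines of mouse embryonic fibroblasts (MEFs) that differ in Oga, the gene of the enzyme O-GlcNAcase. The set comprised 39 symbols of genes typical of macrophages and other blood cells. Of these, 38 were found in the platform annotation, on 70 probe sets, out of 18193 genes on 45037 probe sets without controls. The symbol Lilrb4 was not matched. The members were chosen by name, with no threshold on their values but with earlier results of these data known. Each gene was described by its probe set with the highest mean over all 9 arrays, and its other probe sets were then set beside it.

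The WT line carried intact Oga, the Het line was heterozygous for the Oga deletion, and the KO line was the Oga knockout. Each line came from 1 female embryo code at E12.5 (embryonic day) and was grown in DMEM, and 3 technical replicate arrays were run per line. The series' design text describes males with a floxed Oga allele (background written as C57B1/6), MMTV-cre females (B6129-Tgn(MMTV-Cre)1Mam), and an intercross of the resulting heterozygotes. MMTV is a viral promoter used mainly for expression in mammary and other epithelia; the labels do not say whether a line still carried the Cre transgene. Because each genotype is 1 line, genotype cannot be told apart from any other difference between these lines, and every p-value below measures the spread between technical arrays. Oga itself read 11.92 ± 0.033 (SD, n = 3 arrays, log2) in WT, 11.16 on all 3 Het arrays and 6.06 ± 0.026 in KO. The 14 fibroblast markers, among them the collagen gene Col1a1 and the vimentin gene Vim, all lay above the low-value level (a log2 value of 6.22, the 40th percentile of the probe sets' means) in at least 1 line. The number of arrays limits the precision of every value below.

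Macrophages are the phagocytes of tissues. In the embryo they arise from yolk sac and fetal liver precursors and are present in most organs by midgestation, so a culture of minced embryo can carry them along with fibroblasts. Their identity depends on the transcription factor PU.1, encoded by Spi1, and on the growth factor receptor encoded by Csf1r, which binds CSF1 made by neighbouring stromal cells. They take up debris through scavenger, complement and Fc receptors and break it down in lysosomes.

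The macrophage genes were lowest in the KO line and, for most of them, slightly below WT in the Het line. Of the 38 genes, 35 fell in KO against WT, 0 rose and 3 (Aif1, Cd163 and Ly86) were not called, where a call needed a limma adjusted p below 0.05 over all probe sets and a difference of at least 2-fold. Among all 18193 genes 1.91% were called lower and 0.753% higher by this rule. The median log2 difference of the members was -1.71, against -0.0185 over all genes. At the adjusted p threshold alone 37 were lower, all but Cd163, and 0 higher (20.7% and 14.1% of all genes). All 3 KO arrays lay below all 3 WT arrays for 37 of the 38 members and above them for 0, against 28.2% and 20.5% of all genes. Among the 12962 genes with a mean at or above the low-value level, 2.58% were called lower and 0.988% higher. In those genes the KO arrays lay below all WT arrays for 36.1% and above them for 25.7%. Over the members the mean log2 value was between 10.59 and 10.62 on the WT arrays, between 10.21 and 10.28 on the Het arrays and between 8.92 and 8.96 on the KO arrays. RNA came from whole cultures, and which cells made these transcripts was not measured. Fewer cells that make these transcripts and less of the transcripts per cell therefore cannot be told apart.

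**Figure D1:**
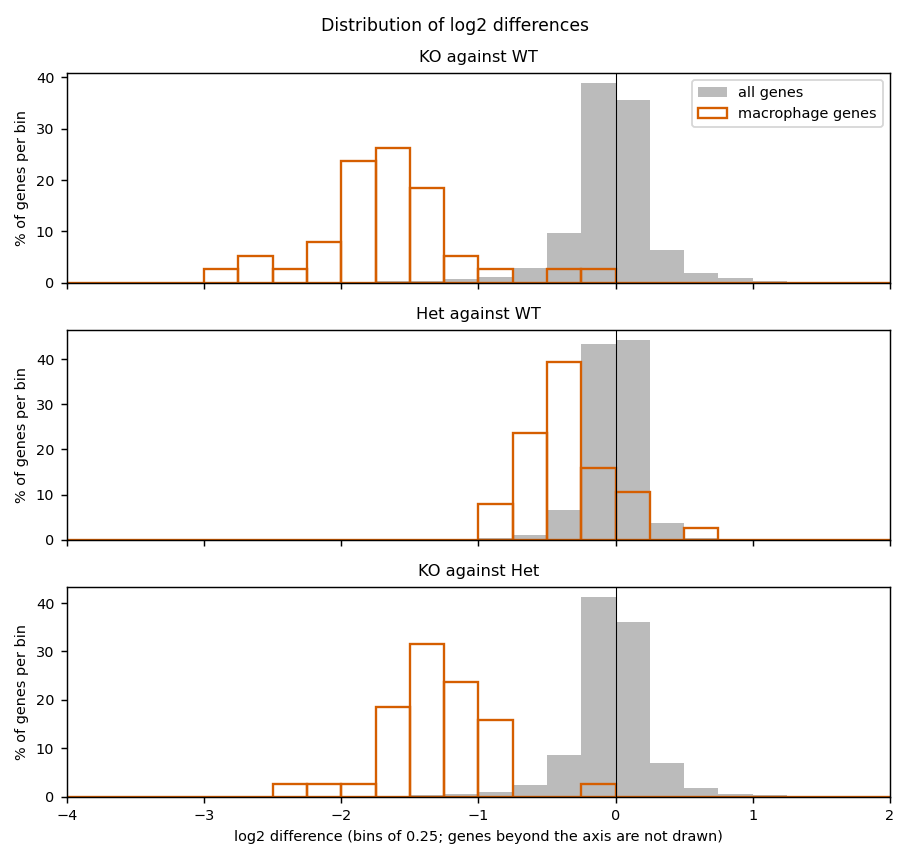
Percent of genes (y axis) in bins of the log2 difference (x axis) for the 3 comparisons, with all 18193 genes filled and the 38 macrophage genes outlined. The outlined bars centre near the members' medians of -1.71 (KO against WT), -0.37 (Het against WT) and -1.30 (KO against Het), while all genes centre near 0.

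In the Het line the members were shifted less. Against WT, 0 of 38 were called (limma), where 0.159% of all genes were called lower and 0.0385% higher. At the adjusted p threshold alone 28 members were lower and 1, Ly86, was higher, against 12.4% and 7.33% of all genes; at an unadjusted p below 0.05 the counts were 31 lower and 2 higher, against 18.4% and 13.3%. The median log2 difference was -0.37 over the members and -0.0048 over all genes. For 31 members all Het arrays lay below all WT arrays (21.6% of all genes), and for 2 members, Cd163 and Ly86, all lay above (16.2%). Between KO and Het, 31 members fell and 0 rose (0.995% and 0.5% of all genes), with a median of -1.30, and at the adjusted p threshold alone 37 were lower and 0 higher (17.6% and 14.5%). The arrays of all 38 members lay lower in KO than in Het without overlap and those of 0 higher (24.9% and 20.7% of all genes). The 7 members not called in that comparison were Fcgr2b, Cd84, Cd53, Cd52, Aif1, Cd163 and Ly86. These comparisons share lines, so they are not independent of each other.

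**Figure D2:**
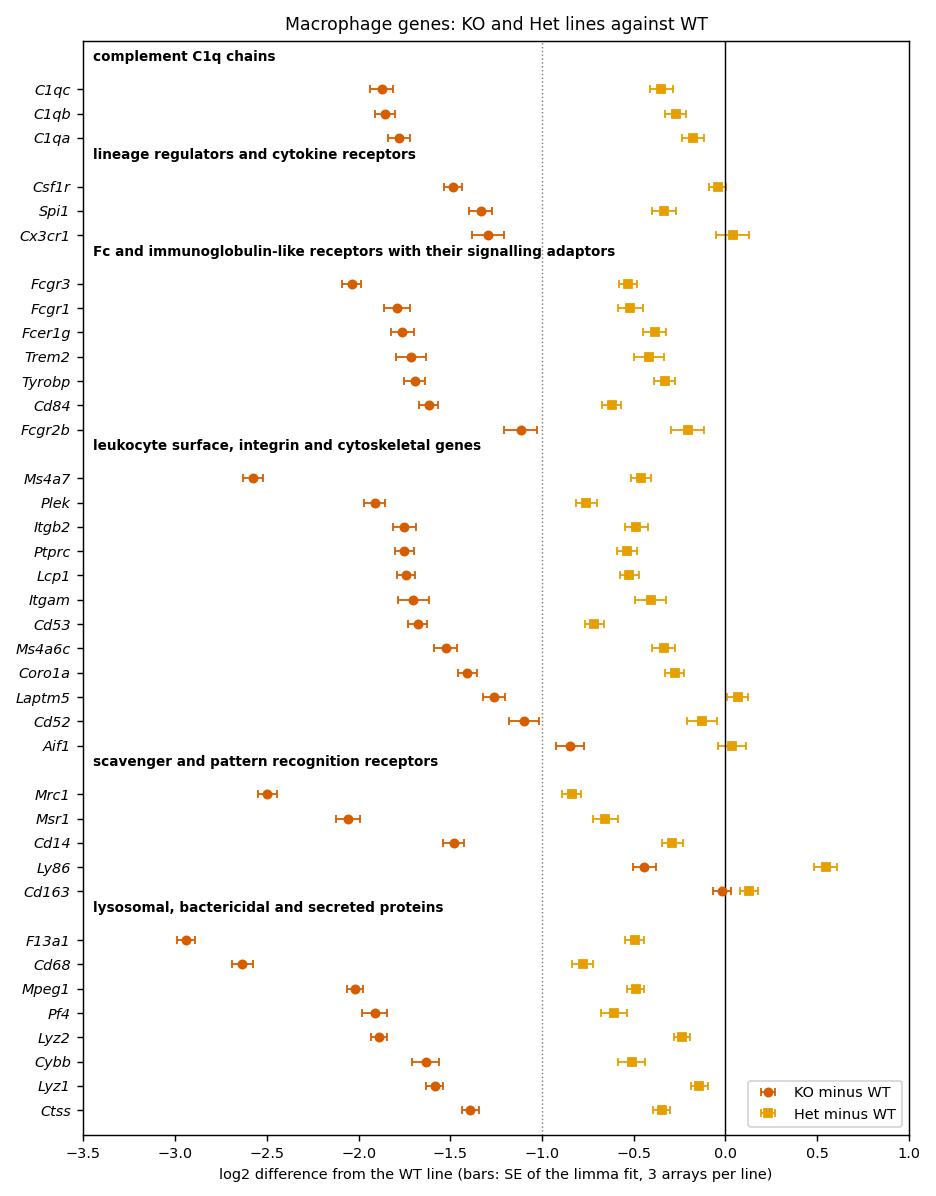
Log2 difference from WT (x axis) of each of the 38 macrophage genes (y axis, grouped by role), with circles for KO and squares for Het and bars for the SE of the limma fit over 3 arrays per line; the dotted line marks 2-fold. The KO circles lie left of the dotted line for 35 genes, from -2.94 (F13a1) to -1.10 (Cd52), and the Het squares lie between -0.84 (Mrc1) and 0.55 (Ly86).

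The RefSeq promoter table (assembly GRCm38.p6) was searched for short sequences of the kind PU.1 binds. The shares below depend on which genes are members and do not use the array values. Any link between these sequences and the fall in KO was not tested. The 250 bases before the annotated start were read on both strands for GAGGAA and for GGAAGT, which overlap at GGAA when they form one site. Of the 38 genes 30 matched an entry, with 36 windows; C1qa, Spi1, Csf1r, Tyrobp, Itgb2, Cd52, Msr1 and Cd14 were not matched. GAGGAA lay in the windows of 16 of the 30 genes (53.3%, against 25.9% of 27025 genes in the table), and GGAAGT in those of 14 (46.7% against 22.2%). Both joined at GGAA were found in 2 genes, C1qc and Pf4 (6.7% against 2.8%). At least 1 of the sequences lay in the windows of 22 of the 30 genes (73.3% against 40.2%). Cx3cr1, Fcer1g, Cd84, Coro1a, Mpeg1, Cybb, Ly86 and Cd163 held neither, and all of these but Ly86 and Cd163 were called lower in KO against WT. For comparison, TATAAA was found in 10.0% of the member genes (14.3% of all) and CACGTG in 0 of them (6.9% of all). Member windows had a median GC content of 45.2%, against 52.4% for all windows, and the part of base composition in these shares was not tested. A match describes these letters and says nothing of binding. Of the 35 genes that fell, 6 that held a match are printed with the upstream 250 bases 5′ to 3′ and matches on either strand in capitals. The 6 are the pair with the joined sequence, the genes Cd68 and Mrc1 with large falls, and the neighbouring lysozyme genes Lyz1 and Lyz2.
C1qc (chr4:136892915-136893164, minus strand): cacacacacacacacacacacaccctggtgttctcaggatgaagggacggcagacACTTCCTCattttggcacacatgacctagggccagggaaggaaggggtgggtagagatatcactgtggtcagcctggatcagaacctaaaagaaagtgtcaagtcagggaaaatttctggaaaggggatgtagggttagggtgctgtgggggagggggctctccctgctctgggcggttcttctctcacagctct
Pf4 (chr5:90772185-90772434, plus strand): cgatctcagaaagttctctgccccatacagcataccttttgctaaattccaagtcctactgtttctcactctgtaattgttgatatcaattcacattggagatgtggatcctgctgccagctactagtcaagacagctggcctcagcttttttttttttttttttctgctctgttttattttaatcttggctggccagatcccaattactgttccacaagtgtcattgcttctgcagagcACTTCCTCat
Cd68 (chr11:69666171-69666420, minus strand): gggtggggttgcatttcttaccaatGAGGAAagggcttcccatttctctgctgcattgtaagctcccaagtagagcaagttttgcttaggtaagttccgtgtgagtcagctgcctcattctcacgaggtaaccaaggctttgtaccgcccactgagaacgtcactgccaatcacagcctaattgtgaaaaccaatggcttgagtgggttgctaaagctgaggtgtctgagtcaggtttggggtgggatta
Mrc1 (chr2:14229164-14229413, plus strand): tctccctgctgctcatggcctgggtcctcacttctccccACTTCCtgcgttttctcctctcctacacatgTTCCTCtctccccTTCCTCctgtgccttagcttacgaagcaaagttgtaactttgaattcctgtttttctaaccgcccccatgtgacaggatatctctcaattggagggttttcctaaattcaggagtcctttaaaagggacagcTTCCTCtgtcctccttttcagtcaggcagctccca
Lyz2 (chr10:117282273-117282522, minus strand): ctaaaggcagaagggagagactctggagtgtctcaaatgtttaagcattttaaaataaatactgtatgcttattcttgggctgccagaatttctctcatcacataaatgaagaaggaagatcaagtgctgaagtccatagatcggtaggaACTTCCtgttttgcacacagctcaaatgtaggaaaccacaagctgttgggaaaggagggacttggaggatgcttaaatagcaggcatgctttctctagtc
Lyz1 (chr10:117292869-117293118, minus strand): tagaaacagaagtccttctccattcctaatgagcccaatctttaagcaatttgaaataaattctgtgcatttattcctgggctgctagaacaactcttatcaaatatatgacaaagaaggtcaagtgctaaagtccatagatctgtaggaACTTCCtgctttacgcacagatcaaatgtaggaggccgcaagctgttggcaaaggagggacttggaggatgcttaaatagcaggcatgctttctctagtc
In C1qc the joined match begins 195 bases before the start and in Pf4 10 bases before it. The Lyz1 and Lyz2 windows were identical at 200 aligned positions, with 48 mismatches and 4 gap positions (79.4% identical), and in both GGAAGT lies on the opposite strand with its outermost base 100 bases before the start.

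Of the 3 members that encode a lineage regulator or a cytokine or chemokine receptor, Spi1, Csf1r and Cx3cr1, 3 fell in KO. Spi1 encodes the transcription factor PU.1. Spi1 read 9.17, 9.14 and 9.11 (log2) on the WT arrays, 8.68, 8.81 and 8.93 on the Het arrays and 7.78, 7.78 and 7.85 on the KO arrays. The KO arrays were lower than all others, and the Het arrays lay between those of the other lines without overlap. Spi1 fell 2.52-fold in KO, at -1.33 ± 0.063 (log2, SE) with a limma adjusted p of 1.11e-07, and in Het its log2 difference was -0.33. KO against Het was at -1.0001, at the 2-fold limit, and that call was lost without Het replicate 2, Het replicate 3, KO replicate 1 or KO replicate 2. Csf1r stood at 12.09, 12.20 and 12.18 in WT, at 12.15, 12.08 and 12.10 in Het and at 10.64, 10.68 and 10.68 in KO, on the same log2 scale. Csf1r, the receptor for CSF1, fell 2.80-fold in KO (log2 difference -1.49), while its WT and Het arrays overlapped and their log2 difference was -0.043 (limma adjusted p = 0.565). Its other 2 probe sets fell by log2 differences of -1.32 and -1.005 in KO, and there the WT and Het arrays did not overlap, with Het differences of -0.14 and -0.13 (log2) that missed the threshold (adjusted p = 0.196 and 0.114 by limma). For Cx3cr1, the log2 values were 10.52, 10.44 and 10.42 in WT, 10.61, 10.47 and 10.42 in Het and 9.36, 8.98 and 9.15 in KO. Cx3cr1 encodes the fractalkine receptor of monocytes and microglia; it fell 2.45-fold in KO, and its WT and Het arrays overlapped as well (log2 difference 0.040). A second Cx3cr1 probe set differed there, at a log2 difference of -0.55 in Het and -1.21 in KO.

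The C1q chains form the first component of the classical complement pathway and are made in large part by tissue macrophages. C1qa read 12.53, 12.60 and 12.58 (log2) on the WT arrays, 12.31, 12.42 and 12.44 on the Het arrays and 10.81, 10.69 and 10.88 on the KO arrays. C1qb stood at 12.52, 12.53 and 12.47 in WT, at 12.13, 12.28 and 12.30 in Het and at 10.67, 10.62 and 10.66 in KO, on the same log2 scale. For C1qc, the log2 values were 11.97, 12.00 and 11.98 in WT, 11.50, 11.67 and 11.74 in Het and 10.12, 10.05 and 10.17 in KO. At these probe sets the lines were ordered WT, Het, KO with no overlap of arrays in all 3 genes. The falls in KO were close in size, with log2 differences of -1.78 ± 0.060 for C1qa, -1.86 ± 0.056 for C1qb and -1.87 ± 0.064 for C1qc (SE). In Het, C1qb (log2 difference -0.27) and C1qc (-0.35) were lower and C1qa was not past the adjusted p threshold (-0.18, limma adjusted p = 0.0634). The other 2 C1qb probe sets fell by smaller log2 differences of -1.25 and -1.03 in KO. In Het they were at -0.065 and 0.033 (adjusted p = 0.551 and 0.714 by limma), with WT and Het arrays that overlapped, so the lower C1qb value in Het was seen at 1 of 3 probe sets.

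Several receptors for antibody and related immunoglobulin-like receptors signal through the small adaptors Fcer1g (the Fc receptor gamma chain) and Tyrobp (DAP12). All 7 measured genes of this group fell in KO, with a median log2 difference of -1.72. Fcer1g read 12.01, 12.05 and 11.97 (log2) on the WT arrays, 11.54, 11.71 and 11.63 on the Het arrays and 10.21, 10.18 and 10.36 on the KO arrays. Tyrobp stood at 11.76, 11.74 and 11.74 in WT, at 11.33, 11.49 and 11.44 in Het and at 10.04, 9.98 and 10.14 in KO, on the same log2 scale. The adaptors were ordered alike, with every KO array below every Het array and every Het array below every WT array. Fcer1g fell 3.39-fold and Tyrobp 3.24-fold in KO, log2 differences of -1.76 ± 0.063 and -1.69 ± 0.059 (SE). For Fcgr3, the log2 values were 10.43, 10.55 and 10.48 in WT, 9.95, 9.93 and 9.99 in Het and 8.50, 8.45 and 8.41 in KO. Fcgr3, an activating low-affinity IgG receptor, had the largest fall of the group at its most abundant probe set, 4.11-fold. The high-affinity receptor gene Fcgr1 fell by a log2 difference of -1.79 (its second probe set was at -0.86, short of 2-fold), the lipid receptor gene Trem2 by -1.72 and the adhesion receptor gene Cd84 by -1.62. A second Trem2 probe set lay below the low-value level in every line, with KO above WT by 0.045 on the log2 scale.

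Probe sets of Fcgr2b, the inhibitory IgG receptor gene, did not give 1 size. Fcgr2b read 11.47, 11.40 and 11.47 (log2) on the WT arrays, 11.29, 11.27 and 11.17 on the Het arrays and 10.31, 10.55 and 10.14 on the KO arrays at the probe set with the highest mean, a 2.17-fold fall in KO (log2 difference -1.12 ± 0.090). Another 3 of its 5 probe sets fell by log2 differences of -3.33, -3.25 and -2.73, and the last was below the low-value level in every line. The probe set at -3.33 was at 11.11 on all 3 WT arrays, at 10.30, 10.33 and 10.37 in Het, and at 7.88, 7.74 and 7.74 in KO (log2). These values are given after they were seen. The direction was shared by these 4 probe sets, and the size ran from 2.17-fold to 10.0-fold. In Het the most abundant probe set missed the threshold (-0.21, adjusted p = 0.137 by limma), while the other 3 lay between -0.78 and -0.58.

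Genes of the leukocyte surface and of the cytoskeleton beneath it formed the largest group, of which 11 of 12 fell in KO (median log2 difference -1.69). Ptprc encodes CD45, the phosphatase on all nucleated blood cells, and it fell 3.36-fold (log2 difference -1.75 ± 0.054, SE). The integrin chains of the receptor Mac-1, Itgam and Itgb2, fell by log2 differences of -1.70 and -1.75, a gap smaller than the SE of either. Lcp1 read 11.15, 11.07 and 11.07 (log2) on the WT arrays, 10.55, 10.59 and 10.58 on the Het arrays and 9.40, 9.38 and 9.28 on the KO arrays. Coro1a stood at 11.04, 11.14 and 11.08 in WT, at 10.80, 10.77 and 10.86 in Het and at 9.72, 9.62 and 9.71 in KO, on the same log2 scale. The actin-bundling gene Lcp1 fell 3.35-fold and the actin-binding coronin gene Coro1a 2.65-fold, and at these probe sets arrays of different lines did not overlap. A second Coro1a probe set fell 2.67-fold in KO, and its WT and Het arrays overlapped (log2 difference -0.13, adjusted p = 0.122 by limma). For Ms4a7, the log2 values were 11.09, 11.11 and 11.09 in WT, 10.57, 10.69 and 10.65 in Het and 8.57, 8.56 and 8.42 in KO. Ms4a7, a tetraspan membrane protein gene of mature macrophages, fell 5.97-fold in KO against 2.88-fold for its relative Ms4a6c. A second probe set of each gene lay below the low-value level in every line. There KO minus WT was -0.30 for Ms4a7 and 0.23 for Ms4a6c (log2, adjusted p = 0.0216 and 0.0357 by limma). Plek (pleckstrin) fell 3.76-fold, and a second Plek probe set was the one member probe set called in Het against WT (log2 difference -1.19).

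At their most abundant probe sets, Laptm5, Cd52 and Aif1 did not pass the adjusted p threshold in Het against WT. Laptm5 read 11.22, 11.39 and 11.26 (log2) on the WT arrays, 11.40, 11.31 and 11.36 on the Het arrays and 10.01, 9.99 and 10.09 on the KO arrays. Laptm5, a lysosomal transmembrane gene of blood cells, fell 2.40-fold in KO, and its Het arrays overlapped with WT (log2 difference 0.067). The surface glycoprotein gene Cd52 fell 2.14-fold in KO, and in Het its log2 difference was -0.13 (limma adjusted p = 0.311). For Aif1, the log2 values were 7.54, 7.52 and 7.47 in WT, 7.40, 7.62 and 7.61 in Het and 6.61, 6.58 and 6.79 in KO. Aif1 encodes the calcium-binding protein IBA1, a common macrophage stain; it was lower in KO, at -0.85 on the log2 scale (adjusted p = 1.21e-05 by limma), short of 2-fold. Of the 5 Laptm5 probe sets, 3 fell in KO (log2 differences -1.26, -1.33 and -1.04), 1 was at 0.016 and 1 lay below the low-value level in every line at -0.28. The 3 that fell have names ending in _x_at or _s_at, which mark probes shared with other transcripts or with related ones, and the one at 0.016 does not. The Laptm5 probe set at -1.04 in KO was also lower in Het, at -0.44 (log2, limma adjusted p = 0.00923), without overlap of arrays. The remaining Laptm5 probe sets lay between -0.044 and 0.075 in Het and did not pass the threshold.

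**Figure D3:**
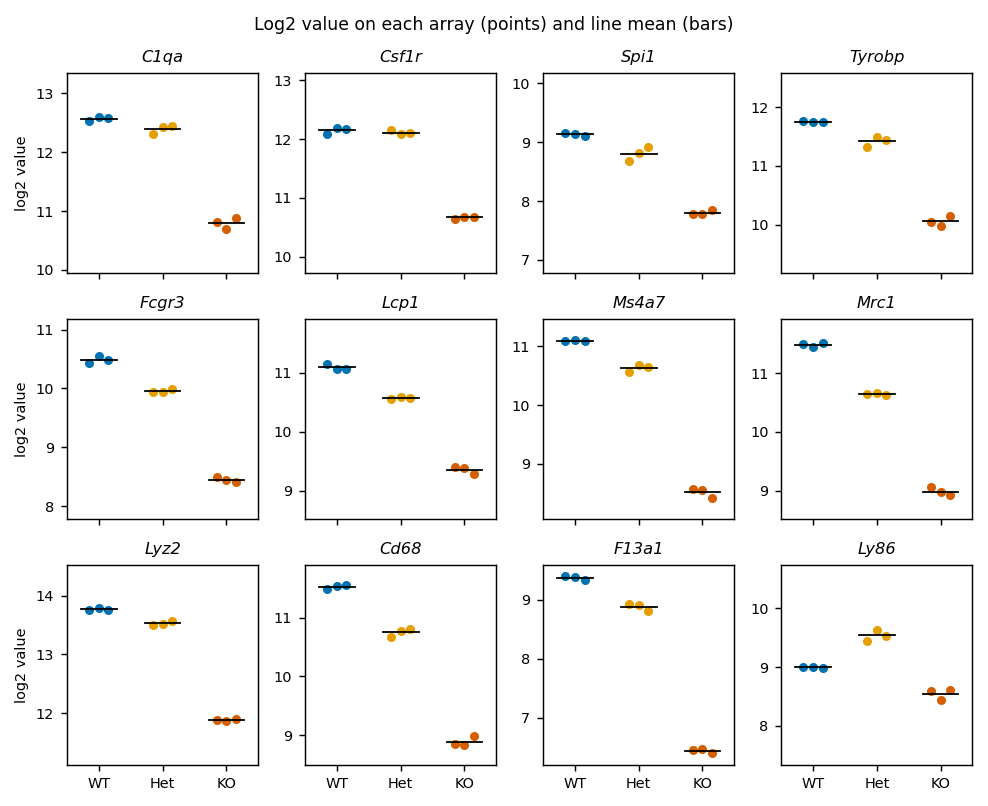
Deposited log2 values (y axis) on each of the 3 arrays per line (points; blue WT, yellow Het, red KO) with the line mean (bar) for 12 macrophage genes, each panel spanning the same range of 3.4 on the log2 scale. KO is lowest in every panel, Csf1r is level between WT and Het, and Ly86 is highest in Het.

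Scavenger and pattern recognition receptors held the widest range and 2 of the 3 members not called in KO against WT. Mrc1 read 11.49, 11.44 and 11.52 (log2) on the WT arrays, 10.64, 10.65 and 10.63 on the Het arrays and 9.06, 8.98 and 8.92 on the KO arrays. Msr1 stood at 11.31, 11.42 and 11.45 in WT, at 10.74, 10.74 and 10.73 in Het and at 9.44, 9.37 and 9.19 in KO, on the same log2 scale. The mannose receptor gene Mrc1 fell 5.65-fold and the class A scavenger receptor gene Msr1 4.17-fold in KO. The other Msr1 probe sets fell less, by 3.44-fold, 2.59-fold and 2.81-fold, and the last was below the low-value level in Het and KO. By their most abundant probe sets, Mrc1 had the most negative Het difference of the 38 members, -0.84 ± 0.050 (log2, SE). For Cd14, the log2 values were 11.60, 11.70 and 11.71 in WT, 11.32, 11.37 and 11.46 in Het and 10.13, 10.22 and 10.21 in KO. Cd14, the co-receptor for bacterial lipopolysaccharide, fell 2.79-fold in KO and was lower in Het by a log2 difference of -0.29.

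Ly86 and Cd163 departed from the rest of the members. Ly86 read 8.998, 8.998 and 8.986 (log2) on the WT arrays, 9.45, 9.64 and 9.53 on the Het arrays and 8.60, 8.44 and 8.62 on the KO arrays. Ly86, which encodes MD-1, the partner of the receptor RP105, was higher in Het than in WT by 0.55 ± 0.064 on the log2 scale (SE; adjusted p = 0.000263 by limma) and lower in KO, at -0.44 (adjusted p = 0.000396), each short of 2-fold and each without overlap of arrays. KO was below Het by a log2 difference of -0.99. Cd163 stood at 3.94, 3.94 and 3.93 in WT, at 4.09, 4.09 and 4.01 in Het and at 3.85, 3.98 and 3.92 in KO, on the same log2 scale. Cd163, the haemoglobin scavenger receptor gene, lay below the low-value level on every array, and its KO and WT arrays overlapped (log2 difference -0.017, limma adjusted p = 0.834). It was the sole member at that level in all 3 lines.

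Products of the lysosome and secreted proteins made up the remaining 8 members, all of which fell in KO (median log2 difference -1.90). Lyz2 read 13.76, 13.79 and 13.75 (log2) on the WT arrays, 13.50, 13.52 and 13.56 on the Het arrays and 11.88, 11.86 and 11.90 on the KO arrays. Mpeg1 stood at 11.81, 11.78 and 11.77 in WT, at 11.26, 11.35 and 11.27 in Het and at 9.75, 9.78 and 9.76 in KO, on the same log2 scale. The lysozyme gene Lyz2 fell 3.70-fold and the pore-forming perforin-2 gene Mpeg1 4.06-fold, with log2 standard errors of 0.043 and 0.046. For Ctss, the log2 values were 12.01, 12.08 and 12.05 in WT, 11.68, 11.69 and 11.72 in Het and 10.60, 10.70 and 10.66 in KO. Ctss, the antigen-processing protease cathepsin S, fell less, 2.62-fold. Lyz1 read 13.79, 13.87 and 13.85 (log2) on the WT arrays, 13.65, 13.74 and 13.69 on the Het arrays and 12.24, 12.24 and 12.26 on the KO arrays at a probe set whose name ends in _x_at. Lyz1 and Lyz2 are closely related neighbours, and the one Lyz1 probe set of 3 without that ending lay below the low-value level in every line (KO minus WT -0.21), so the 3.00-fold fall listed for Lyz1 cannot be told apart from that of Lyz2.

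The most negative KO differences of all members by their most abundant probe sets were also in this group, and these genes are given by array after their values were seen. F13a1, the A subunit of coagulation factor XIII and a gene of resident and wound macrophages, read 9.40, 9.39 and 9.34 (log2) in WT, 8.93, 8.90 and 8.81 in Het and 6.46, 6.46 and 6.39 in KO, a 7.68-fold fall in KO. The lysosomal glycoprotein gene Cd68 read 11.48, 11.53 and 11.55 (log2) in WT, 10.67, 10.77 and 10.80 in Het and 8.85, 8.84 and 8.98 in KO, a 6.21-fold fall. In both genes the KO arrays were far below the others, while the Het arrays were below WT by log2 differences of -0.50 and -0.78. The platelet and macrophage chemokine gene Pf4 fell 3.77-fold and Cybb, the catalytic subunit of the phagocyte oxidase, 3.10-fold. The other 2 Cybb probe sets fell 2.49-fold and 3.03-fold in KO, and in Het they were at log2 differences of -0.074 and -0.80.

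The log2 differences of the members in KO against WT had an SD of 0.54 over the 38 genes, with quartiles at -1.88 and -1.43. Probe sets of 1 gene also differed, for Fcgr2b between -3.33 and -1.12 among those above the low-value level, and the SE covers technical arrays alone, so whether the genes differ in the size of their fall was not tested. In KO against Het the SD over members was 0.38 and in Het against WT 0.28. Over the 70 probe sets, 55 were called lower and 0 higher in KO against WT (1.21% and 0.646% of all 45037 probe sets), 1 lower and 0 higher in Het against WT (0.151% and 0.0955%), and 44 lower and 0 higher in KO against Het (0.637% and 0.415%). The 10 probe sets below the low-value level in every line had 0 calls in any comparison, with log2 differences in KO between -0.30 and 0.23. In 20 genes there was 1 probe set and in 18 several, so for 20 genes the size rests on a single probe set. With the mean of a gene's probe sets in place of the most abundant one, 29 members were called lower in KO against WT, and Ptprc, Cd53, Cd84, Trem2, Laptm5 and Ms4a6c were not. With probe sets ending in _x_at or _s_at left out, a choice made after seeing the data, 32 of 37 were called, and the calls of Trem2, Laptm5 and Lyz1 were lost.

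**Figure D4:**
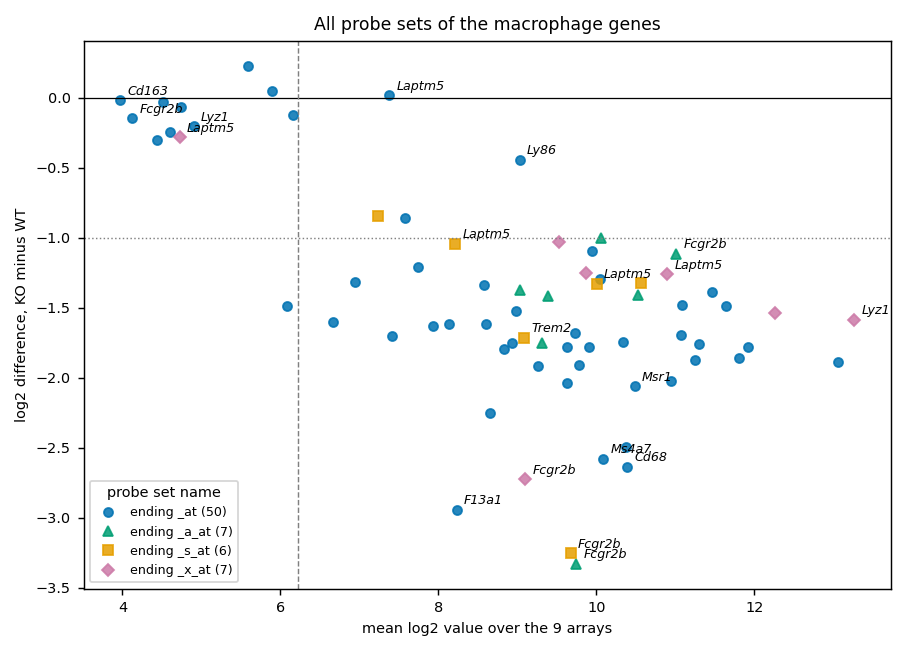
Log2 difference of KO minus WT (y axis) against the mean log2 value over 9 arrays (x axis) for all 70 probe sets of the macrophage genes, with the shape giving the ending of the probe set's name, the dashed line the low-value level (6.22) and the dotted line 2-fold. Most probe sets left of the dashed line lie near 0, and the Fcgr2b probe sets spread from -3.33 to -0.15.

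Other genes were read from lists chosen by role, here and in the next paragraph, with earlier results of these data known. The counts below therefore depend on that choice. Of 48 further macrophage and myeloid genes measured, 27 fell in KO, 0 rose and 21 were not called (1.91% lower and 0.753% higher among all genes). Their median log2 difference was -1.11, led by the scavenger receptor gene Stab1 (-2.21), the chemokine gene Ccl3 (-2.15) and the anaphylatoxin receptor gene C3ar1 (-2.09). Together the members and this list made up 62 of the 347 genes called lower in KO against WT (17.9%) and 42 of the 181 in KO against Het (23.2%). Of 12 macrophage transcription factor genes 3 fell, Maf (-1.53), Ikzf1 (-1.27) and Irf8 (-1.08), and 0 rose. Of 8 genes for colony-stimulating factors and their receptors 2 fell, both beta chains (Csf2rb at -1.34 and Csf2rb2 at -1.05). Csf1, the ligand of the receptor encoded by Csf1r, is named here after its values were seen. At the most abundant of its 4 probe sets it averaged 11.17 ± 0.0092 for WT, 10.90 ± 0.014 for Het and 11.34 ± 0.013 for KO (SD, n = 3 arrays, log2). That value was highest in KO and lowest in Het, with differences short of 2-fold. A link to the values of Csf1r was not tested. Of 9 monocyte-attracting chemokine and receptor genes 2 fell, Ccl12 (-2.50) and Ccr1 (-1.98). Among 18 lysosome genes that most cells make, 0 were called (limma; 15 lower and 0 higher at an unadjusted p below 0.05, against 25.7% and 18.2% of all genes). At the adjusted p threshold alone 13 of the 18 were lower and 0 higher (20.7% and 14.1% of all genes). The median log2 difference was -0.25, with Grn at -0.33 and Ctsl at 0.0625. In Het against WT 13 were also lower and 0 higher (12.4% and 7.33% of all genes), with a median of -0.19. In KO against Het 3 were lower and 3 higher (17.6% and 14.5% of all genes), with a median of -0.015.

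Markers of other blood lineages were not called in KO against WT. Over T cell, B cell, natural killer, dendritic, mast, neutrophil and erythroid markers, 0 of 54 measured genes were called (limma; 1 lower and 5 higher at an unadjusted p below 0.05, against 25.7% and 18.2% of all genes), and 34 of the 54 lay below the low-value level in every line. The mean log2 value of the T cell list was between 6.22 and 6.25 on WT arrays and between 6.19 and 6.34 on KO arrays, and that of the mast cell list between 5.66 and 5.84 and between 5.72 and 5.85. Megakaryocyte and platelet markers (6 measured) had 0 calls in KO against WT (limma; 1 lower and 2 higher at an unadjusted p below 0.05), and 1, the platelet chemokine gene Ppbp, fell in Het (log2 difference -1.58). Of 10 endothelial markers 0 were called in KO against WT (limma; 1 lower and 2 higher at an unadjusted p below 0.05). Of 9 osteoclast markers 1 rose, the gelatinase gene Mmp9 (log2 difference 1.03). Several genes that mark subsets of resident or inflammatory macrophages lay below the low-value level in every line, namely Cd163, Lyve1, Timd4, Vsig4, Marco, Cd5l, Clec7a, Mmp12, Il1b and Itgax. Of 14 fibroblast markers 1 fell, the mesenchymal receptor gene Pdgfra (-2.55). At the adjusted p threshold alone 7 of the 14 were lower and 0 higher (20.7% and 14.1% of all genes), among them the decorin gene Dcn, named after its values were seen, at -0.93 (1.90-fold). The mean log2 value of that list was between 12.97 and 12.98 on WT, 12.90 and 12.91 on Het and 12.59 and 12.65 on KO arrays. The part of these other differences in the fall of the macrophage genes was not tested.

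**Figure D5:**
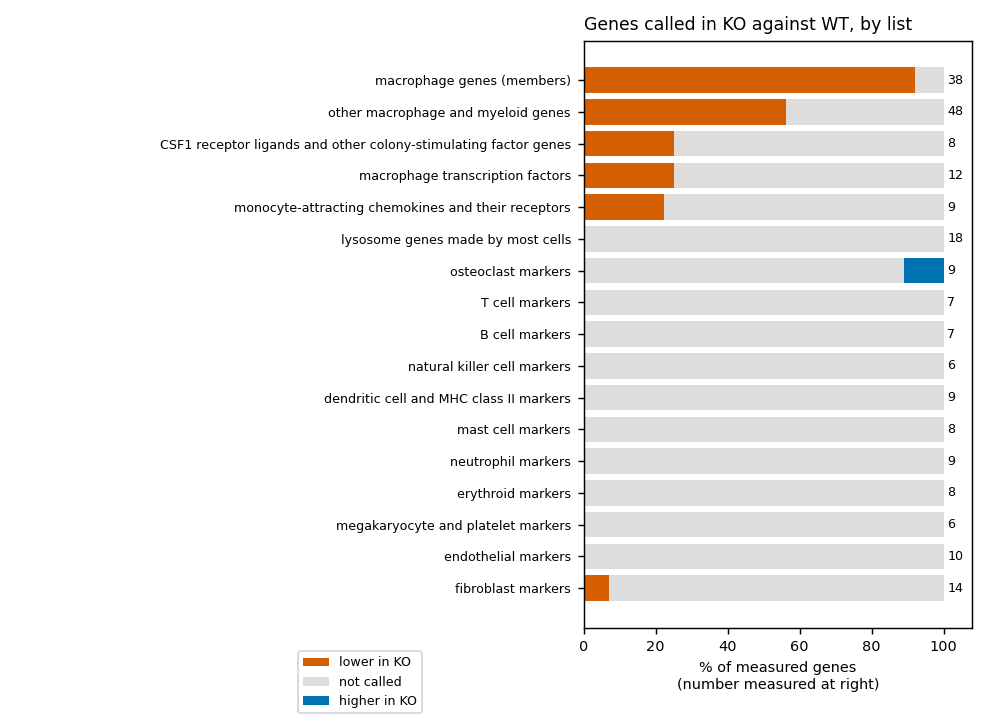
Percent of the measured genes of each list (x axis) called lower, not called or called higher in KO against WT, with the number measured at the right of each bar. The macrophage genes (35 of 38) and the further macrophage and myeloid genes (27 of 48) hold most of the calls, and the bars of the T cell, B cell, natural killer, dendritic, mast, neutrophil, erythroid, platelet, endothelial and general lysosome lists hold 0.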

How the data were processed

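The deposited values are log2 intensities of Affymetrix arrays, 1 value per probe set and array, from cultured mouse embryonic fibroblasts. Per the submitters' processing notes GCOS and Partek were used; the background correction, normalization and summarization behind the authors' log2 values are not given in the sources used here. That the scale is log2 was read from the values, which ran from 3.25 to 15.1. Array medians lay between 6.87 and 6.95, and correlations between arrays were 0.997 to 0.999 within lines and 0.989 to 0.996 between lines. The values were used without further normalization.

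All 45037 probe sets without the 64 control sets were fitted with limma 3.58.1 (R 4.3.3; lmFit and eBayes, 1 mean per line, all 9 arrays, no filter), and p-values were adjusted by Benjamini-Hochberg over all of them. A call needed an adjusted p below 0.05 and a difference of at least 2-fold. The fit was tested on simulated data. Of the probe sets, 34945 had 1 gene symbol in the platform annotation, 932 had several and 9160 had none; those with several name no gene. Each gene was represented by its probe set with the highest mean over the arrays. Group values are means of 3 technical arrays per line, so no p-value covers the spread between embryos or lines.

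The members and all lists were chosen with earlier results of these data known. Values on every array are given for up to 4 members per role with the highest means and for members whose call differs from most of their group. In other lists up to 3 called genes with the largest KO difference are named or, with 0 calls, up to 2 with the highest means; genes named beside these were chosen after their values were seen. Promoter windows came from RefSeq (GRCm38.p6), and the lysozyme windows were aligned with Biopython 1.88. Alternatives covered normalization, centring, filters, the probe set rule, the fold minimum, the variance model, the replicate number as a block and each array left out.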

Additional observations from a re-analysis of the deposited data

How the results depend on the processing

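The 35 calls in KO against WT stayed at 35 under quantile normalization, median centring, the filter at the 40th percentile, 1 probe set per gene, the trended variance and with each array left out. They became 29 with the mean of a gene's probe sets, 30 with their median, 25 at a 3-fold minimum, 36 at 1.5-fold and 32 with probe sets ending in _x_at or _s_at left out, a choice made after seeing the data. The mean of probe sets takes in sets below the low-value level: Ptprc, Cd53, Cd84, Trem2, Laptm5 and Ms4a6c lost their calls there (log2 differences -0.91, -0.86, -0.87, -0.84, -0.78 and -0.65). For Laptm5 the mean also takes in a probe set above that level in every line, with KO minus WT at 0.016. The 31 calls in KO against Het became 6 at 3-fold, 23 with the mean and 25 with the median of probe sets (9 and 7 genes lost their calls and Fcgr2b gained one), 28 with the endings left out, 29 under median centring and 30 under quantile normalization, and lay between 30 and 34 with an array left out; the KO against Het call of Spi1 was lost without Het replicate 2, Het replicate 3, KO replicate 1 or KO replicate 2. The 0 calls in Het against WT became 1 (Plek) with the median of probe sets and 7 at 1.5-fold (Cd84, Cd53, Plek, Mrc1, Msr1, Cd68 and Pf4). The median log2 difference in KO against WT (-1.71) was -1.68 under quantile normalization, -1.46 with the mean or median of probe sets, and -1.74 to -1.68 with an array left out. In Het against WT (-0.37) it was -0.40 under median centring, -0.33 with the mean or median of probe sets, and -0.40 to -0.34 with an array left out. In KO against Het (-1.30) it was -1.25 under median centring, -1.11 with the mean and -1.19 with the median of probe sets, -1.26 with those endings left out, and -1.31 to -1.26 with an array left out.

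Of 2388 values of single genes under alternatives, 2277 kept direction and call, 73 lost a call, 27 gained one and 11 changed sign. In Het against WT the sign changed for Cx3cr1 (-0.25 with the mean or the median of probe sets, -0.016 without Het replicate 1, and -0.016 to 0.081 with an array left out), Laptm5 (-0.076 with the mean, -0.44 with the median), Aif1 (-0.0020 under median centring, -0.0056 without Het replicate 2, and -0.0056 to 0.106 with an array left out) and Trem2 (0.091 with the endings left out). In KO against WT it changed for Trem2 (0.045) and Laptm5 (0.016) with the endings left out and for Cd163 (0.016 without KO replicate 1, and -0.046 to 0.016 with an array left out). The cause of these changes was not tested, beyond the probe sets each alternative takes in. With the replicate number as a block the counts were 35, 0 and 31 and no call among the summary counts changed. Same-numbered arrays of different lines had correlations of their deviations between -0.11 and 0.23, and differently numbered arrays between -0.17 and 0.13. With 3 technical arrays per line these values cannot decide whether the numbers pair the samples. A signal below the low-value level limits what can be said of Cd163.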
